A study of Homo sapiens with 6 samples.

Results

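The autophagy receptor and LC3 family genes described here are SQSTM1, NBR1, OPTN, MAP1LC3A, MAP1LC3B, GABARAP, GABARAPL1, GABARAPL2, ULK1 and BECN1. They were taken by gene symbol from a table of read counts, which held all 10 among 27469 genes. The counts come from HMC3, an immortalised human line labelled as microglia, and compare 3 libraries of cells given the cytokine interleukin-33 (IL-33) for 24 h with 3 Control libraries without it. Sequencing read a short tag close to the 3′ ends of polyadenylated RNA. The labels give no dose and no passage, and do not say whether the libraries come from separate cultures, so that any p-value reflects how these libraries vary, and that variation may be purely technical.

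Macroautophagy encloses cytoplasmic material in a double membrane, the autophagosome, which then fuses with the lysosome. The ULK1 kinase starts the process, and BECN1, a subunit of the class III PI3-kinase complex, helps to mark the growing membrane with phosphatidylinositol 3-phosphate. Proteins of the ATG8 family, divided into an LC3 and a GABARAP branch, are attached to that membrane by a lipid, and receptors such as SQSTM1 (p62), NBR1 and OPTN bind both ubiquitinated cargo and ATG8 proteins. Much of autophagy is set at the level of proteins and their turnover, and SQSTM1 and lipidated LC3 are themselves degraded in the process, so that messenger levels do not measure autophagic flux.

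Library totals lay between 8294747 and 10217529 counts with IL-33 and between 5739947 and 9933395 in Control. Control 3 had the lowest depth and differed most from the rest: it scored 55.0 on the main axis of variation (35.4% of the variance), where the other 5 libraries scored between -18.0 and 0.86. Of 13 microglia and macrophage markers, 7 (ITGAM, P2RY12, TMEM119, CX3CR1, SPI1, TYROBP and C1QA) had 0 counts in every library. Over the 6 libraries CD68 had 149 counts, CD14 67, TREM2 37, CSF1R 25, AIF1 9 and PTPRC 2. The 13 together came to between 3.98 and 6.85 CPM with IL-33 and between 3.62 and 8.01 CPM in Control. CPM are counts scaled to a library of 1e+06. The 6 mesenchymal markers, COL3A1 at 0 among them, summed to between 2316 and 2835 CPM with IL-33 and between 2010 and 2812 CPM in Control. VIM had the most of these counts, 81875 over the 6 libraries, then COL1A1 with 37896, while COL1A2 had 831. The sums were 0.314 to 1.33 CPM with IL-33 and 0.0 to 1.51 CPM in Control for 4 astrocyte markers, and 29.4 to 37.4 CPM with IL-33 and 23.9 to 32.1 CPM in Control for 4 neuronal markers. Of the neuronal counts TUBB3 had 1392, SNAP25 162, SYT1 20 and RBFOX3 11.

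The stretches of sequence at the 3′ ends of the 10 transcripts are shown because a 3′ tag is read there and because the ATG8 genes are similar in their coding parts. Each stretch has 30 bases and lies in the last exon of the principal GENCODE release 29 transcript on GRCh38, on the coding strand. Capitals mark the last AATAAA or ATTAAA, the common polyadenylation signals, within 60 bases of the annotated transcript end. The stretches lie at chr5:179838044-179838073 (+) for SQSTM1, chr17:43211657-43211686 (+) for NBR1, chr10:13138262-13138291 (+) for OPTN, chr20:34560311-34560340 (+) for MAP1LC3A and chr16:87404750-87404779 (+) for MAP1LC3B. They lie at chr17:7240022-7240051 (-) for GABARAP, chr12:10223095-10223124 (+) for GABARAPL1, chr16:75577850-75577879 (+) for GABARAPL2, chr12:131923123-131923152 (+) for ULK1 and chr17:42810142-42810171 (-) for BECN1.
SQSTM1: acaaagcaAATAAAtgccttccacctcacc
NBR1: aatggtgaAATAAAtgttcttggaaattcc
OPTN: gatactaaagcatttaagaaaaaATTAAAa
MAP1LC3A: ctctgcagAATAAAgattgctcaggcctgc
MAP1LC3B: ataaaggcacaATTAAAaactgtcatcaaa
GABARAP: attttcatgtgtgcaagctagtaaaacggc
GABARAPL1: gccaaggaAATAAAataattgcttacctta
GABARAPL2: taattaacAATAAAaattctcttataaagg
ULK1: cgtaaggaAATAAAcctttggaattgttgg
BECN1: ttatttgtAATAAAagatttgctgcagtct

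An AATAAA was found for 7 of the genes, an ATTAAA for OPTN and MAP1LC3B, and neither motif for GABARAP. In OPTN the ATTAAA ended 1 base before the annotated end. The last 400 bases of each transcript were then searched against all GENCODE 29 transcripts. At 90% identity or more over at least 75 bases, 0 other genes matched any of these 10 stretches. Only the principal transcript of each gene was searched, while GABARAP has 5 annotated 3′ ends and GABARAPL1 has 10. Over the whole transcript, MAP1LC3B matched the retrogene MAP1LC3B2 at 97.2% identity over 601 bases, and GABARAPL1 matched the pseudogene GABARAPL3 at 95.5% over 354 bases. Those matches ended 1555 and 1278 bases before the 3′ ends of MAP1LC3B and GABARAPL1. MAP1LC3B2 had 15 counts in the 6 libraries together and GABARAPL3 had 0. MAP1LC3B and GABARAP also matched 2 and 1 pseudogenes, which were not analysed here. GABARAP also overlaps AC120057.2, a gene annotated as protein coding on the same strand that shares 692 bases with it and was not analysed here. That match, at 100% identity, ended 413 bases before the 3′ end of GABARAP, just outside the last 400 bases.

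The genes differed widely in level, and each neighbouring pair in the order kept that order in at least 4 of 6 libraries. Since a 3′ tag is read about once per transcript whatever its length, CPM values are set beside each other between genes without division by length; differences in priming between genes were not tested. GABARAP was the most abundant at a mean of 269 CPM over the 6 libraries, rank 605 among 12125 genes tested. It was followed by SQSTM1 at 136, NBR1 at 109, GABARAPL2 at 83.9, OPTN at 65.7, MAP1LC3B at 50.3, ULK1 at 33.3, GABARAPL1 at 31.6, MAP1LC3A at 11.4 and BECN1 at 8.43 CPM. Of the neighbours in this order, GABARAP and SQSTM1, SQSTM1 and NBR1, MAP1LC3B and ULK1, and GABARAPL1 and MAP1LC3A had ranges over the 6 libraries that did not overlap. The ranges of the other 5 neighbouring pairs overlapped. Of these, ULK1 and GABARAPL1, the closest in level, kept their order in 4 of 6 libraries and each of the others in 5. MRNIP, AC120057.2, AC025287.1 and CNTD1 are annotated at or near the 3′ ends of SQSTM1, GABARAP, GABARAPL2 and BECN1. The strand setting of the counting is not given. Whether reads in such overlaps were left uncounted, which would lower these levels, was not tested.

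**Figure D1:**
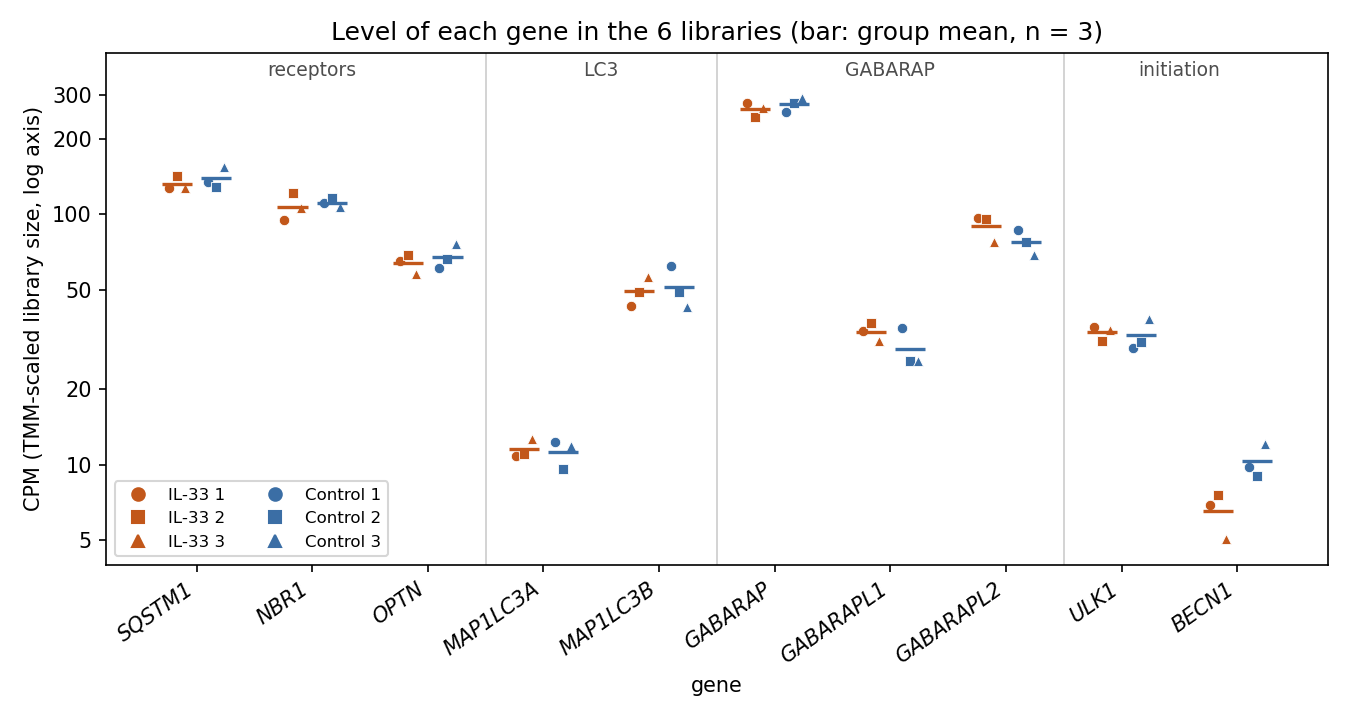
CPM (TMM-scaled library size, log axis) of each gene, with IL-33 libraries in orange left of Control libraries in blue, 1 point per library and a bar at the mean of 3. The groups overlap in 9 genes; in BECN1 the IL-33 libraries lie between 5.07 and 7.62 CPM, all below the Control libraries at 9.02 to 12.1 CPM.

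The comparison of IL-33 with Control asks whether the messengers of these genes differ after 24 h of the cytokine. None of the 10 passed the test, and their differences were small: apart from BECN1, log2 fold changes lay between -0.08 and 0.22. All 10 genes passed the filter on low counts. In RNA from a whole culture, fewer cells with a messenger and less of it per cell cannot be told apart. With the quasi-likelihood test of edgeR and p-values adjusted by Benjamini-Hochberg over all genes, 0 of 10 changed at an adjusted p of 0.05 (background 0.0% of 12125 genes), and 1 of 10, BECN1, had an unadjusted p under 0.05 (background 2.43%). DESeq2 and limma-voom called 0 as well (background 1 and 0 of 12125 genes). At an unadjusted p under 0.05 they had 1 and 0 of the 10 (background 290 and 329 of 12125 genes). Of the 10, 4 had a log2 fold change above 0 and 6 below, with a median of -0.05; over all genes tested 48.9% lay above 0 and the median was -0.01. The groups did not overlap in 1 of the 10 genes (background 8.06%). In 7 of the 10 the 95% interval of the difference was contained in -0.5 to 0.5 log2 units (background 39.8%), and in 9 it was contained in -1 to 1 (background 73.4%). Intervals tend to be narrower for genes with more counts, and this background is not matched for level. The shares therefore do not show these genes to be unusually stable.

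**Figure D2:**
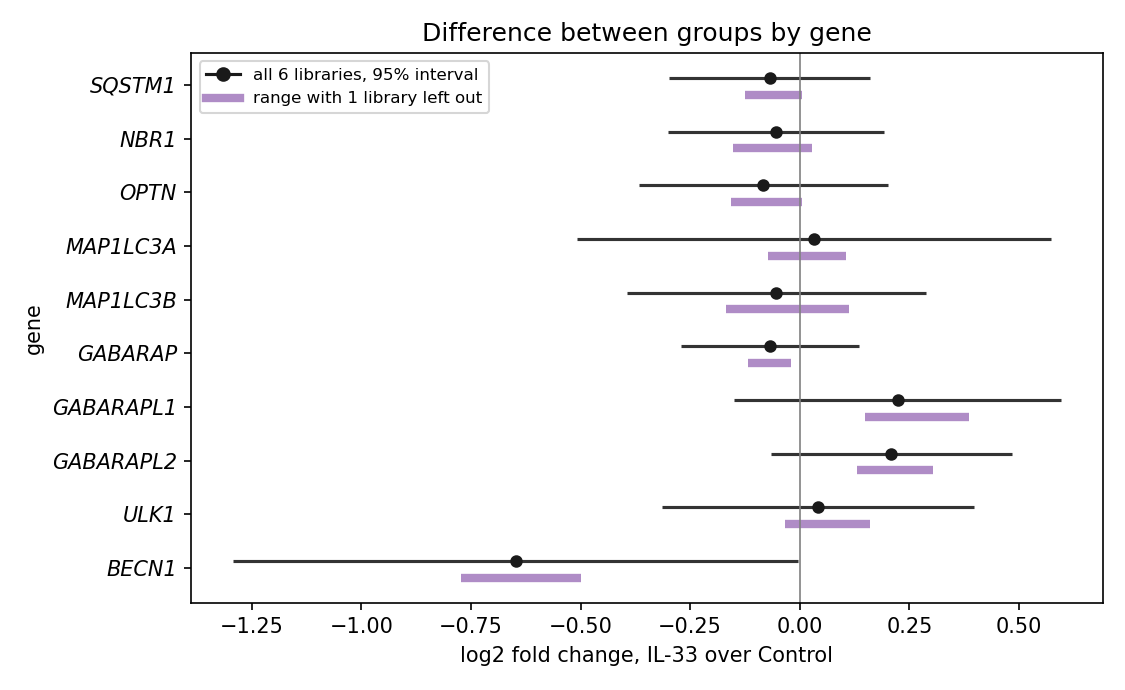
Log2 fold change of IL-33 over Control for each gene from edgeR (black point) with its 95% interval (black line), and the range of the same value when each of the 6 libraries is left out in turn (purple). The intervals of 9 genes hold 0; that of BECN1 runs from -1.29 to -0.0032.

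Among the receptors, SQSTM1 (chromosome 5, 179806398 to 179838078, plus strand) links ubiquitinated cargo to LC3 and also binds KEAP1, the repressor of NRF2. It measured 128, 143 and 127 CPM in the IL-33 libraries, against 135, 129 and 154 CPM in the Control libraries, from 850 to 1460 counts per library. The groups overlapped, and Control 3 held the highest value. The log2 fold change was -0.07 ± 0.11 (SE), with a 95% interval from -0.30 to 0.16 and an adjusted p of 0.999 by edgeR. Without Control 3 it was 0.0061, so that the small negative value rested on that library. Its 3′ end lies within MRNIP on the opposite strand, a gene that had 0 counts in every library. Whether reads in the overlap were left uncounted for both genes was not tested, so this 0 does not show that MRNIP was silent.

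NBR1 (chromosome 17, 43170481 to 43211689, plus strand), a larger receptor of similar architecture to SQSTM1, measured 94.6, 121 and 106 CPM with IL-33, against 111, 116 and 107 CPM in Control. IL-33 libraries held both the lowest and the highest value, so that the Control range lay inside that of IL-33. For NBR1 the log2 fold change was -0.05 ± 0.12, turning to 0.03 when IL-33 1 was left out, with a 95% interval from -0.30 to 0.19. OPTN (chromosome 10, 13099449 to 13138308, plus strand), a receptor that the kinase TBK1 phosphorylates in the clearance of mitochondria and bacteria, measured 64.9, 68.7 and 57.5 CPM with IL-33, against 60.8, 66.2 and 76.0 CPM in Control. Control 3 was again the highest library. For OPTN the log2 fold change was -0.08 ± 0.14, with a 95% interval from -0.37 to 0.20, and was 0.0056 without Control 3.

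The CPM of the receptors were summed without division by length, as for the levels above. Together SQSTM1, NBR1 and OPTN came to 303 ± 25.2 CPM with IL-33 and 318 ± 16.1 CPM in Control (SD, n = 3 each), and the difference was smaller than the spread in either group. The genes whose levels across the 6 libraries most resembled SQSTM1 were PSMD7, TFE3 and SUPT7L. Likeness was measured as the mean absolute difference of log2 CPM centred on each gene's mean, over genes at 10 CPM or more, and came to 0.014, 0.018 and 0.021 log2 units. The measure rests on 6 libraries in which all of these genes moved little, and TFE3 is itself an autophagy gene by function. Like SQSTM1, each of them was highest in Control 3, the library that differed most from the rest. There PSMD7 measured 197 CPM, TFE3 107 CPM and SUPT7L 46.9 CPM. Whether the likeness goes beyond that library was not tested.

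The LC3 branch was represented mostly by MAP1LC3B, the form commonly followed as LC3-II. MAP1LC3B (chromosome 16, 87383995 to 87404779, plus strand) measured 43.2, 49.0 and 56.3 CPM with IL-33, against 62.1, 48.8 and 42.5 CPM in Control. Its libraries spread widely within both groups, Control 1 and Control 3 forming the extremes. The log2 fold change was -0.05 ± 0.16, with a 95% interval from -0.39 to 0.29, and it ran from -0.17 without Control 3 to 0.11 without Control 1. FBXO31 on the opposite strand overlaps the gene but not its 3′ end, and had 975 counts in all.

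MAP1LC3A (chromosome 20, 34546854 to 34560345, plus strand), a second LC3 form, was the least abundant ATG8 gene tested. It measured 10.9, 11.03 and 12.7 CPM with IL-33, against 12.3, 9.62 and 11.9 CPM in Control, from 66 to 124 counts per library. The values overlapped throughout, with a log2 fold change of 0.03 ± 0.26 and a 95% interval from -0.51 to 0.57, the second widest of the 10. It turned to -0.07 without Control 2 and to -0.04 without IL-33 3. The other LC3 genes, MAP1LC3C and MAP1LC3B2, had 2 and 15 counts in all and could not be tested.

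GABARAP (chromosome 17, 7240014 to 7242770, minus strand), the founding gene of its branch, whose product also binds ULK1, was the best measured of the 10 with 13851 counts in all. It measured 277, 244 and 266 CPM with IL-33, against 256, 278 and 291 CPM in Control. Its log2 fold change was -0.07 ± 0.10, and the 95% interval from -0.27 to 0.13 corresponds to a ratio of IL-33 to Control between 0.828 and 1.1, the narrowest of the 10. The groups overlapped, with IL-33 2 the lowest library and Control 3 the highest. With a library left out the value ran from -0.12 without Control 1 to -0.02 without IL-33 2.

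The other GABARAP genes had the largest positive values of the 10, and neither passed. GABARAPL2 (chromosome 16, 75566351 to 75577881, plus strand), also known as GATE-16, measured 97.0, 95.5 and 77.4 CPM with IL-33, against 86.8, 77.7 and 68.8 CPM in Control. IL-33 1 and IL-33 2 lay above every Control library and IL-33 3 within the Control range. GABARAPL2 had a log2 fold change of 0.21 ± 0.13, with a 95% interval from -0.07 to 0.48, an unadjusted p of 0.129 and an adjusted p of 0.999 by edgeR. With a library left out the value ran from 0.13 without Control 3, the lowest library for this gene, to 0.30 without IL-33 3, with unadjusted p between 0.0506 and 0.348 by edgeR. In GENCODE 29 a noncoding transcript on the opposite strand, AC025287.1, covers the whole of GABARAPL2; it was not analysed here.

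GABARAPL1 (chromosome 12, 10212458 to 10223130, plus strand), a close relative of GABARAP that is known as a starvation-induced gene in several cell types, measured 34.2, 36.8 and 31.1 CPM with IL-33, against 35.1, 26.1 and 26.1 CPM in Control. The IL-33 libraries lay close together, Control 1 lay among them, and Control 2 and Control 3 lay below. GABARAPL1 had a log2 fold change of 0.22 ± 0.18, with a 95% interval from -0.15 to 0.60, an unadjusted p of 0.225 and an adjusted p of 0.999 by edgeR. Its size depended on the Control libraries: it was 0.39 without Control 1 (unadjusted p of 0.0669 by edgeR), 0.15 without Control 2 and 0.15 without Control 3.

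Summed over the 5 ATG8 genes, the family stood at 462, 437 and 443 CPM in the IL-33 libraries, against 452, 440 and 440 CPM in the Control libraries. The coefficient of variation of these sums over the 6 libraries was 2.13%, against 6.31% to 15.1% for the 5 genes one by one. A sum varies less than its parts also where these vary independently, and the value for that case was not computed. The GABARAP branch made up most of it, with 386 ± 18.8 CPM with IL-33 and 382 ± 4.12 CPM in Control, while the LC3 branch had 61.1 ± 7.57 CPM with IL-33 and 62.4 ± 10.5 CPM in Control (SD, n = 3 each). Dividing each gene's counts by the family total gives a composition that does not depend on the scaling between libraries. GABARAP took 58.6% ± 2.30 of the family counts with IL-33 and 62.0% ± 4.87 in Control, and GABARAPL2 took 20.1% ± 2.33 with IL-33 and 17.5% ± 1.80 in Control. GABARAPL1 took 7.62% ± 0.731 with IL-33 and 6.53% ± 1.06 in Control, and MAP1LC3B took 11.1% ± 1.69 with IL-33 and 11.5% ± 2.07 in Control. MAP1LC3A took 2.58% ± 0.264 with IL-33 and 2.54% ± 0.308 in Control (SD, n = 3 each, for all 5 genes). No share separated the groups. In 2-sided exact permutation tests, in which 3 against 3 allows no p below 0.1, the smallest p was 0.3, for GABARAPL1 and GABARAPL2, or 0.667 after Benjamini-Hochberg adjustment over the 5 shares. The 5 shares sum to the whole, so they are not independent of each other.

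**Figure D3:**
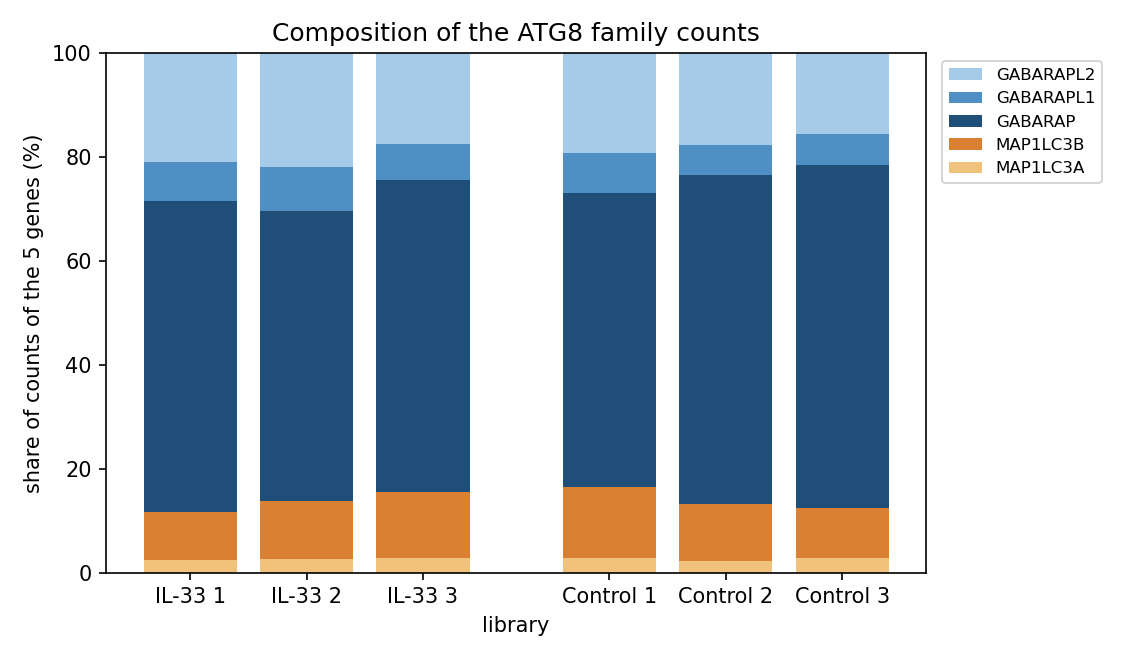
Share (%) of each of the 5 LC3 and GABARAP genes in their summed counts, 1 stacked bar per library, with IL-33 libraries on the left and Control libraries on the right. GABARAP takes between 55.9% and 66.1% of the family in every library, and no share separates the groups.

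Of the initiation genes, ULK1 (chromosome 12, 131894651 to 131923167, plus strand), the kinase that AMPK activates and mTORC1 restrains, measured 35.4, 31.2 and 34.7 CPM with IL-33, against 29.4, 31.02 and 38.4 CPM in Control. The IL-33 range lay inside the Control range. For ULK1 the log2 fold change was 0.04 ± 0.17, with a 95% interval from -0.31 to 0.40, and it was 0.16 without Control 3 and -0.03 without Control 1.

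BECN1 (chromosome 17, 42810134 to 42833350, minus strand), the human homologue of yeast Atg6 and a partner of BCL2, had the lowest level and the largest difference of the 10. It held 65, 78 and 43 counts in the IL-33 libraries, against 99, 75 and 67 counts in the Control libraries. Scaled to library size these were 6.93, 7.62 and 5.07 CPM with IL-33, against 9.83, 9.02 and 12.1 CPM in Control, so that the scaled values did not overlap although the raw counts did. BECN1 averaged 6.54 ± 1.32 CPM with IL-33 and 10.3 ± 1.61 CPM in Control (SD, n = 3 each). The log2 fold change was -0.65 ± 0.31, with a 95% interval from -1.29 to -0.0032. The unadjusted p was 0.049 and the adjusted p 0.999 by edgeR, so the gene did not pass.

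The depth behind BECN1 was small. The exact 95% Poisson interval of IL-33 2 ran from 6.02 to 9.51 CPM and that of Control 2 from 7.09 to 11.3 CPM, so that the counting intervals of the 2 libraries nearest each other overlapped. The interval of IL-33 2 overlapped that of every Control library, and that of IL-33 1 overlapped those of Control 1 and Control 2 only. By contrast the interval of IL-33 3, from 3.67 to 6.83 CPM, lay below that of every Control library. Over all genes tested, 3.51% had all IL-33 values below all Control values and 0.981% had an unadjusted p under 0.05 by edgeR with a lower value in IL-33. How many genes met both was not counted. With a library left out the log2 fold change stayed negative, from -0.77 to -0.50, with unadjusted p between 0.0438 and 0.16. Without Control 3, which held the highest BECN1 value, it was -0.52 (unadjusted p of 0.133 by edgeR). The 3′ end of BECN1 lies within CNTD1 on the opposite strand, which had 33 counts in all, while PSME3, with 5730 counts, overlaps BECN1 on the opposite strand away from that end. Whether the counting used strand is not given in the sources used here, so reads of such overlapping genes cannot be told apart with certainty. Some of them may also have been left uncounted.

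Other genes of autophagy likewise did not pass. A list of 73 further autophagy genes in 8 groups was compiled, of which 66 passed the filter on low counts. The other 7 had between 1 and 83 counts in all. By edgeR 0 of the 66 changed in either direction (background 0.0%), and DESeq2 and limma-voom also called 0. By each of these 3 tools 1 gene had an unadjusted p under 0.05. The background was 295 of 12125 genes by edgeR, 290 by DESeq2 and 329 by limma-voom. The log2 fold change lay above 0 in 31 genes and below 0 in 35, with a median of -0.02, and the groups did not overlap in 8 genes, 4 with IL-33 above Control (background 4.54%) and 4 with IL-33 below (background 3.51%). The gene with the smallest p among the positive values was ATG16L2, a homologue of the ATG16L1 scaffold of LC3 conjugation. ATG16L2 measured 15.6, 19.1 and 21.6 CPM with IL-33, against 14.1, 11.4 and 8.69 CPM in Control. The groups did not overlap, IL-33 being the higher, with a log2 fold change of 0.70 ± 0.25, a range of 0.55 to 0.89 with a library left out, an unadjusted p of 0.0105 and an adjusted p of 0.999 by edgeR. Among the negative values it was ATG3, the E2-like enzyme that couples ATG8 proteins to lipid, with 58.1 ± 9.60 CPM with IL-33 and 70.3 ± 8.24 CPM in Control (SD, n = 3 each), a log2 fold change of -0.28 ± 0.15 and overlapping groups. With a library left out ATG3 ran from -0.42 without IL-33 3 to -0.18 without Control 1, with unadjusted p between 0.0168 and 0.298 by edgeR.

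By step, the median log2 fold change was 0.00 for the 18 tested genes among the other receptors. The most abundant of them were the mitophagy receptors BNIP3L, with a mean level of 620 CPM and a log2 fold change of 0.02 ± 0.09, and BNIP3, with 510 CPM and 0.08 ± 0.11. In the ULK1 complex 1 of 4 genes lay above 0, and RB1CC1, the scaffold FIP200, measured 170 ± 0.539 CPM with IL-33 and 186 ± 10.9 CPM in Control (SD, n = 3 each), with groups that did not overlap and a log2 fold change of -0.13 ± 0.10. ATG101, a stabilising subunit of the complex, had -0.21 ± 0.15, and -0.04 without Control 3. In the class III PI3-kinase list, to which BECN1 belongs by function, 5 of 9 genes lay above 0. VMP1, a membrane protein needed for autophagosome formation, had 0.23 ± 0.12 with higher values in each IL-33 library than in any Control library, and ran from 0.14 without Control 3 to 0.33 without Control 2. SH3GLB1, which binds UVRAG, had 0.03 ± 0.15. The conjugation and processing genes had a median of 0.04 over 10 tested, with ATG12 at 0.03 ± 0.12 and the LC3 protease ATG4B at -0.06 ± 0.13.

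The median log2 fold change was -0.03 over 8 tested genes of the ATG9, ATG2 and WIPI list, and the phosphoinositide-binding proteins WDR45B and WIPI2 had -0.06 ± 0.10 and 0.03 ± 0.13. Genes of fusion with the lysosome had a median of 0.02 over 7, with RAB7A at -0.04 ± 0.10 and the SNARE SNAP29 at 0.02 ± 0.13. The upstream kinases and TFE factors had the lowest median of the lists, -0.16 over 10 genes, of which 2 lay above 0. Its most abundant genes were TFE3, a transcription factor of lysosomal genes, with -0.07 ± 0.12, and AKT1S1, a subunit of mTORC1, with -0.20 ± 0.16, which ran from -0.32 without IL-33 3 to -0.06 without IL-33 2. None of these genes passed the test.

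**Figure D4:**
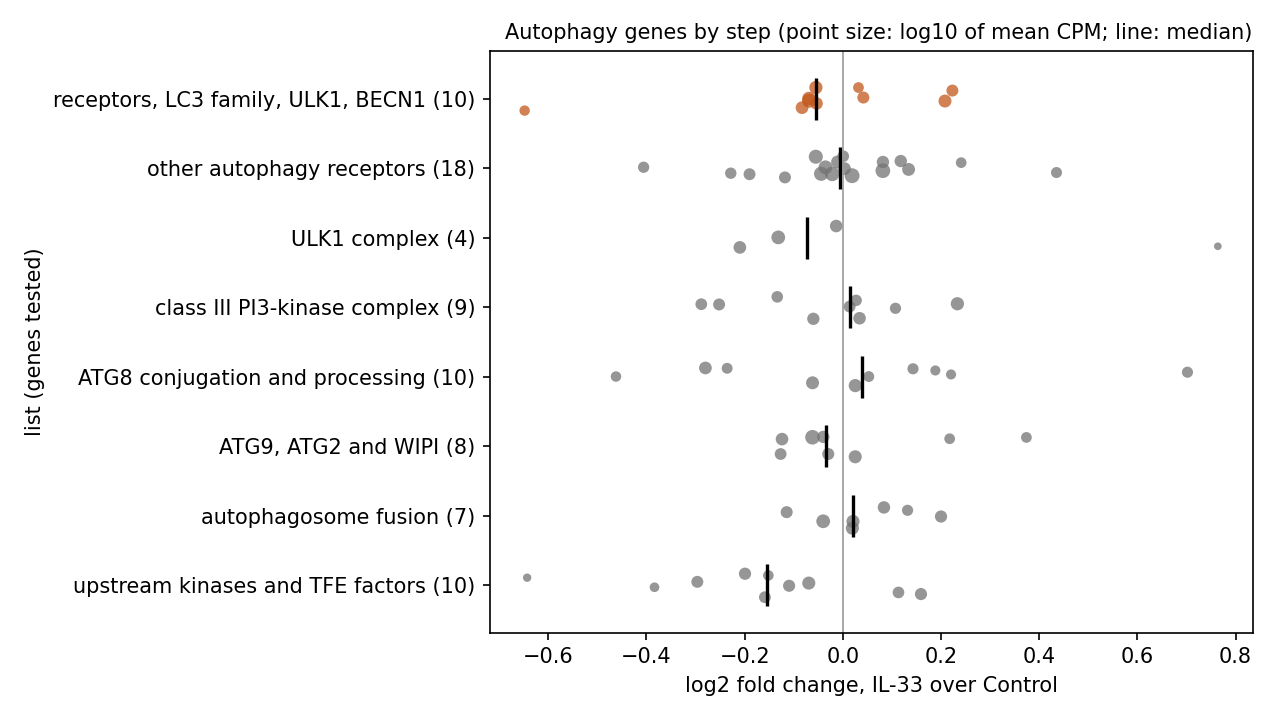
Log2 fold change of IL-33 over Control for each tested gene, by list: the 10 receptor, LC3 family and initiation genes on top (orange) and the other autophagy genes by step below (grey). Points grow with the log10 of mean CPM, and black lines mark list medians, which lie between -0.16 and 0.04.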

How the data were processed

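The authors deposited whole-number read counts per gene symbol for the 6 libraries. Per the labels' protocols, RNA came from TRIZOL and libraries from the Lexogen QuantSeq 3′ FWD kit; per the submitters' processing notes, STAR 2.7.5a, HTSeq 0.6.1, edgeR and hg38 were used, with no role given. The annotation and strand setting: not given in the sources used here. The table had 27470 rows, of which 1 without values was left out.

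All genes were fitted together with edgeR 4.0.16 in R 4.3.3: filterByExpr (count minimum 10, total minimum 15), TMM, robust quasi-likelihood test on group alone, Benjamini-Hochberg adjustment at 0.05 over 12125 genes. CPM used TMM-scaled library sizes, except the marker sums, which used library totals; log2 CPM used a prior count of 2. SE was the log2 fold change over the square root of F. Shares were compared with exact permutation tests. DESeq2 1.42.0 and limma 3.58.1 (voom) were alternatives, beside other scalings and filters, robust estimation off, the replicate number as a block and each library left out. The steps were tested on simulated data. Between libraries of a group, chi-square per degree of freedom lay between 5.60 and 16.5, so none were merged. Intervals from counts cover counting error only, since reads without molecular identifiers are not independent molecules. Positions came from GENCODE 29, matched by symbol for 10 of 10 genes; figures were drawn with matplotlib 3.10.9.

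The genes and lists were chosen with earlier results of these data known. All 10 genes were named; of each list, the 2 most abundant tested genes, any that passed, and over all lists the gene with the smallest p in each direction; 3 genes most like SQSTM1; and overlapping genes. Others were named after their values were seen.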

Additional observations from a re-analysis of the deposited data

How the results depend on the processing

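Under every alternative run, 0 of the 10 genes and 0 of the tested pathway genes changed, also at an adjusted p under 0.1. Over all genes edgeR called 0, against 3 without the low-count filter, 1 by DESeq2, 2 by DESeq2 without Control 3 and 15 by limma-voom without Control 3, the last 2 fits being chosen after seeing the data; with edgeR and a library left out the count ran from 0 to 6, the 6 without Control 3. None of the 10 genes and none of the pathway lists was among these. The cause was not tested. BECN1 was not tested at a filter of 10 CPM. GABARAP, GABARAPL1, GABARAPL2 and BECN1 kept their direction in every fit run. With a library left out, log2 fold changes ran from -0.13 to 0.0061 for SQSTM1, -0.15 to 0.027 for NBR1, -0.16 to 0.0056 for OPTN, -0.072 to 0.10 for MAP1LC3A, -0.17 to 0.11 for MAP1LC3B and -0.035 to 0.16 for ULK1. They ran from -0.059 to 0.099 for ATG12, -0.16 to 0.051 for ATG4B, -0.051 to 0.17 for BNIP3, -0.044 to 0.063 for BNIP3L, -0.13 to 0.12 for SH3GLB1, -0.11 to 0.14 for SNAP29, -0.14 to 0.030 for TFE3, -0.13 to 0.037 for WDR45B and -0.10 to 0.095 for WIPI2. By DESeq2 and by limma-voom without Control 3, the direction turned for SQSTM1 (0.0057 and 0.0054), OPTN (0.0052 and 0.012), BNIP3 (-0.051 and -0.050), BNIP3L (-0.044 and -0.044), SH3GLB1 (-0.013 and -0.017), ATG4B (0.051 and 0.041), WDR45B (0.037 and 0.039) and TFE3 (0.030 and 0.029). The difference in family share, IL-33 minus Control, ran from -0.13 to 0.16 percentage points for MAP1LC3A and from -1.31 to 0.72 for MAP1LC3B. The labels do not say that replicate numbers pair the libraries, and same-numbered deviations correlated at -0.086, 0.027 and -0.136. With the replicate block 0 genes changed and BECN1 had -0.65 with an unadjusted p of 0.0711. Depth limits BECN1 and MAP1LC3A most, with 427 and 593 counts over the 6 libraries.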
